A study of Mus musculus with 3 samples.

Results

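Immunoglobulin variable (V) segment genes supply most of the antigen-binding part of an antibody, and they are described here in plasma cells of the inflamed mouse colon. The members are the 348 genes whose symbol begins with Ighv, Igkv or Iglv, out of 32285 genes counted: 185 heavy chain, 160 kappa light chain and 3 lambda light chain genes. The rule uses the symbol alone and no measured value. Each of 1353 plasma cells was then given its top heavy and its top light V gene, which is the single gene of that chain with the most unique molecular identifiers (UMIs, each standing for 1 captured RNA molecule) and at least 3 of them.

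The study compared mononuclear cells of the colonic lamina propria of C57/BL6J mice in 3 libraries, 1 per group. All groups drank 1.5% dextran sodium sulfate (DSS, a chemical that injures the colon lining) for 7 days and then water for 3 days. The antibody, 250 µg 3 times a week, was DATK32 in the first group, MECA367 in the second, and rat IgG, the control antibody, in the third (RatIgG). The labels call DATK32 a surrogate of ontamalimab and MECA-367 a surrogate of vedolizumab, whereas the clone DATK32 is generally known to bind the integrin alpha4beta7 and MECA-367 its ligand MAdCAM-1, so the groups are named here by clone alone. Viable CD45+ cells were sorted and sequenced as 10x 3' v3.1 libraries on a single lane, and how many animals stand behind a library was not stated. With 1 library per group no difference has a replicate check and no test was possible, and the 95% intervals given below (Clopper-Pearson for shares, Poisson for counts) cover counting error only.

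Each developing B cell joins a V segment to downstream segments once in its heavy chain locus and once in a kappa or lambda locus, and all its progeny keep that choice. Plasma cells, the antibody-secreting end stage, therefore normally carry a single heavy V gene and a single light V gene, and those of the gut mostly secrete IgA. Cells of 1 clone share a V pair, but cells with the same pair need not be 1 clone, because the joined ends (the third hypervariable loop) were not read here.

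The sequences below show the V segments behind the largest pairs of each library. Ighv1-76, Ighv2-9-1 and Iglv1 made up the 2 largest pairs of RatIgG, Ighv1-63 with Igkv15-103 the largest of DATK32, and Igkv5-43, with Ighv1-76, the largest of MECA367. Each is the last 180 bases of the V exon in the GENCODE vM21 annotation of GRCm38 (mm10), 5′ to 3′ on the coding strand, and capitals run from the last in-frame cysteine codon, where the third hypervariable loop begins, to the end of the segment.
Ighv1-76: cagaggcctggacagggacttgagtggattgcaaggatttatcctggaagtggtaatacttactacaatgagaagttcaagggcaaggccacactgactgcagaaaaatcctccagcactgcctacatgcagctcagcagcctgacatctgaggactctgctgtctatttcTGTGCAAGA
Ighv2-9-1: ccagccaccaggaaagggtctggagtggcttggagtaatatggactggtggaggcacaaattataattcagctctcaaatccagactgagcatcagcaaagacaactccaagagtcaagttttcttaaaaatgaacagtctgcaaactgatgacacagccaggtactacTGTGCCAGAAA
Iglv1: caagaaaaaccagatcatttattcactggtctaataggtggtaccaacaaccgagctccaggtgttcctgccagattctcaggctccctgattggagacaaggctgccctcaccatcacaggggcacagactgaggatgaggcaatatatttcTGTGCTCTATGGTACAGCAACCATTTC
Ighv1-63: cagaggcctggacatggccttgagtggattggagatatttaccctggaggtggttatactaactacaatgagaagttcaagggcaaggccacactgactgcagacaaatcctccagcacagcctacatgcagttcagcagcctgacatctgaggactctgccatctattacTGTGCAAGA
Igkv15-103: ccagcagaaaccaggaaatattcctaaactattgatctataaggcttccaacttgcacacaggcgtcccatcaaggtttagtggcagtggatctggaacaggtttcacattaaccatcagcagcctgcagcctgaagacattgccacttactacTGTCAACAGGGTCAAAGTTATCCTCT
Igkv5-43: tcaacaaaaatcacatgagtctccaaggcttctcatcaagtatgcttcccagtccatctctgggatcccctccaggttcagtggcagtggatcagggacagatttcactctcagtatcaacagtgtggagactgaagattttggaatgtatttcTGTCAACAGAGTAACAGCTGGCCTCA
They lie at chr12:115847881-115848060 (Ighv1-76, minus strand), chr12:113769850-113770029 (Ighv2-9-1, minus), chr16:19085017-19085196 (Iglv1, minus), chr12:115495625-115495804 (Ighv1-63, minus), chr6:68437746-68437925 (Igkv15-103, plus) and chr6:69823355-69823534 (Igkv5-43, minus), all within coding exons. Ighv1-76 and Ighv2-9-1 were 61.6% identical over the V exon, and Ighv1-76 and Ighv1-63, both of the Ighv1 subgroup, 89.2%.

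Many V segments are so alike that short reads can be split between them. Among those above, Ighv1-76 is in a set with Ighv1-66, Ighv1-75, Ighv1-77 and Ighv1-84, Igkv5-43 in a set with Igkv5-45, and Iglv1 is 97.0% identical to Iglv2. Igkv1-110, the light gene with the next largest mean share after Iglv1, and Igkv1-117 were 96.8% identical over the V exon, and Ighv1-62-3, part of the fifth largest RatIgG pair, was 99.0% identical to Ighv1-72. The last 240 bases of each exon follow, with capitals where a pair differs, at chr6:68271028-68271267 and chr6:68121588-68121827 (plus strand) and at chr12:115460999-115461238 and chr12:115757984-115758223 (minus strand).
Igkv1-110: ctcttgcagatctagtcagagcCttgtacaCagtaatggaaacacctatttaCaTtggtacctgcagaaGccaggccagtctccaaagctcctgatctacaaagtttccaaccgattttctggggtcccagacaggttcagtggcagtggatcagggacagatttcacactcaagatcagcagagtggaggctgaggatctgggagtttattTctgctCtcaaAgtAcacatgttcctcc
Igkv1-117: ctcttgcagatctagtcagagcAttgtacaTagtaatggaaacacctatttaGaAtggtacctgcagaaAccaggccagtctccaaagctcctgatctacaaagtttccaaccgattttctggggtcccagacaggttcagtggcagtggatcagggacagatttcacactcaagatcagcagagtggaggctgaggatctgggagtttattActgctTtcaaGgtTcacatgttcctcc
Ighv1-62-3: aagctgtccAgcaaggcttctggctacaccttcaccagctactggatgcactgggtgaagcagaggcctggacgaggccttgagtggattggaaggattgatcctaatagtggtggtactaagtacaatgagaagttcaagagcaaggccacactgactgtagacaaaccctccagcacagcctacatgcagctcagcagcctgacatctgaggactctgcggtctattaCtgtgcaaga
Ighv1-72: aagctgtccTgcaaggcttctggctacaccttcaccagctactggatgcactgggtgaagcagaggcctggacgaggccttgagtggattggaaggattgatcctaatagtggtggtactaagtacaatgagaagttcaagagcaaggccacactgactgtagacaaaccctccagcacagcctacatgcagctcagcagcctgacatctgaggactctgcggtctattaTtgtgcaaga
The kappa pair differs at 10 of 313 bases of the V exon and the heavy pair at 3 of 305. Of the 218 V genes with a coding sequence, 103 fell into 38 sets whose V exons were at least 95% identical within a subgroup, so the identity of a single gene in these sets is uncertain.

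All 348 genes matched the annotation by gene identifier, with the heavy genes at chr12:113572927-116010093, the kappa genes at chr6:67555497-70704177 and the lambda genes at chr16:19085017-19260859. In plasma cells 194 genes had a UMI in at least 1 library (96 heavy, 95 kappa and 3 lambda) and 154 had none. Of the 130 members annotated as pseudogenes, 17 had a UMI, together 0.0486% of V UMIs, and 0 were on top in any cell. The genes on top in at least 1 cell numbered 147, of which 75 were heavy and 72 light.

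The libraries held 28030376 UMIs (DATK32), 27846540 (MECA367) and 30359331 (RatIgG), of which 5852 (DATK32), 5890 (MECA367) and 7367 (RatIgG) barcodes passed the filter. Plasma cells (at least 1 UMI of Jchain, the joining chain of secreted IgA, and at least 1 of Mzb1 or Derl3, genes of the secretory endoplasmic reticulum) were 326 barcodes in DATK32 (5.57%, interval 5.0 to 6.19), 330 in MECA367 (5.60%, 5.03 to 6.22) and 697 in RatIgG (9.46%, 8.80 to 10.2). With a mitochondrial limit of 5% the shares were 8.34% (DATK32), 7.62% (MECA367) and 14.9% (RatIgG), and without cells carrying 2 or more markers of another lineage 2.85% (DATK32), 2.67% (MECA367) and 5.23% (RatIgG). Of 10 listed plasma cell markers, the 7 that the rule did not use summed to 2487 (DATK32), 2551 (MECA367) and 2397 (RatIgG) CPM (counts scaled to a total of 1000000 over the barcodes that were summed) in these cells and to 591 (DATK32), 499 (MECA367) and 580.4 (RatIgG) CPM in the other barcodes. Despite the CD45+ sort, 1941 (DATK32), 1082 (MECA367) and 2307 (RatIgG) other barcodes carried 2 or more epithelial markers and fewer than 2 of every other list but the plasma cell list. These are the epithelial-marked barcodes below. In plasma cells all 5 neutrophil markers were detected, at a summed 678 (DATK32), 2893 (MECA367) and 645 (RatIgG) CPM, and all 5 epithelial markers, at 595 (DATK32), 307 (MECA367) and 755 (RatIgG) CPM, both below the other barcodes of the same library. All 6 T cell markers summed to 331 (DATK32), 306 (MECA367) and 261 (RatIgG) CPM in plasma cells and to 328 (DATK32), 494 (MECA367) and 275 (RatIgG) CPM in the other barcodes, and Cd3d, part of the T cell receptor complex, had a UMI in 17.8% (DATK32), 20.6% (MECA367) and 12.9% (RatIgG) of plasma cells. The 8 B cell markers summed to 321 (DATK32), 336 (MECA367) and 399 (RatIgG) CPM in plasma cells and to 25.2 (DATK32), 38.6 (MECA367) and 119 (RatIgG) CPM in the other barcodes. Among them Cd79a had a UMI in 65.3% (DATK32), 73.3% (MECA367) and 53.4% (RatIgG) of plasma cells, and Ms4a1 in 1.53% (DATK32), 1.21% (MECA367) and 4.16% (RatIgG). The 4 plasmacytoid dendritic cell markers summed to 61.0 (DATK32), 59.0 (MECA367) and 50.2 (RatIgG) CPM in plasma cells. In the other barcodes they summed to 16.9 (DATK32), 22.2 (MECA367) and 23.5 (RatIgG) CPM. Among them Siglech stood at 10.2 against 1.16 CPM in DATK32, 0 against 0.572 in MECA367 and 1.05 against 2.56 in RatIgG. The part of these cell types in the results was not tested. Leaving out cells with 2 or more markers of another lineage kept 167 (DATK32), 157 (MECA367) and 385 (RatIgG) plasma cells. This filter did not use the B cell markers. Between 18 and 20 barcode sequences were shared by any 2 libraries, and 0 of them were plasma cells in both.

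V genes were a small part of the plasma cell RNA that was read, at 60.7 UMIs per 10000 in DATK32, 81.6 in MECA367 and 56.3 in RatIgG. The median plasma cell had 6 (DATK32), 8 (MECA367) and 4 (RatIgG) heavy V UMIs and 22 (DATK32), 44 (MECA367) and 12 (RatIgG) light V UMIs, out of 5198.5 (DATK32), 7197.5 (MECA367) and 3507 (RatIgG) UMIs in all. A heavy gene could be assigned in 240 DATK32 cells (73.6%, 68.5 to 78.3), 260 MECA367 cells (78.8%, 74.0 to 83.1) and 398 RatIgG cells (57.1%, 53.3 to 60.8). A light gene was assigned in 293 DATK32 (89.9%), 300 MECA367 (90.9%) and 581 RatIgG (83.4%) cells, and both chains in 229 (DATK32), 256 (MECA367) and 365 (RatIgG), which are the paired cells below. Depth and assignment moved together over the libraries, MECA367 being the deepest and RatIgG the shallowest.

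At these depths 96.3% (DATK32), 96.4% (MECA367) and 97.3% (RatIgG) of plasma cells had a V UMI, against 2.68% (DATK32), 4.25% (MECA367) and 3.64% (RatIgG) of epithelial-marked barcodes, which should make no antibody, at median depths of 4038 (DATK32), 2519 (MECA367) and 3397 (RatIgG) UMIs. All barcodes outside the plasma rule held 0.253 V UMIs per 10000 in DATK32, 0.215 in MECA367 and 0.358 in RatIgG. They amounted to 3.18% (DATK32), 1.57% (MECA367) and 3.26% (RatIgG) of the V UMIs of kept barcodes.

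Heavy chain expression was nearly exclusive. In the median assigned cell of every library the top heavy gene held 100% of the heavy V UMIs, and in 72.5% of DATK32, 74.6% of MECA367 and 70.4% of RatIgG cells no other heavy V gene had a UMI. Among cells with at least 10 heavy V UMIs, 106 (DATK32), 130 (MECA367) and 117 (RatIgG) in number, the median was also 100%. Another heavy gene with at least 20% of the heavy V UMIs and at least 3 UMIs was seen in 29 (DATK32), 23 (MECA367) and 29 (RatIgG) cells. Near-identical genes recurred among those: Ighv1-53 with Ighv1-55 (95.1% identical) in 10 DATK32 and 5 MECA367 cells, and Ighv1-62-3 with Ighv1-72 in 4 RatIgG cells. Ighv1-76 and Ighv2-9-1 were together in 4 RatIgG cells.

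Light chain expression was less exclusive than heavy chain expression in these cells. The top light gene held a median 78.9% of light V UMIs in DATK32 (quartiles 61.1 and 91.5), 75% in MECA367 (60.0 and 86.7) and 87.0% in RatIgG (69.6 and 100). It was the sole light gene in 12.3% (DATK32), 4.33% (MECA367) and 32.2% (RatIgG) of cells. A second light gene of at least 20% and 3 UMIs was present in 120 (DATK32), 148 (MECA367) and 152 (RatIgG) cells, and Iglv1 was a member of that couple in 87 (DATK32), 126 (MECA367) and 111 (RatIgG) of them. Igkv1-110 with Igkv1-117 made up 10 more in DATK32 and 16 in RatIgG. With Iglv1 left out of the count, the median top share was 96.3% in DATK32 and 94.3% in MECA367.

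No heavy V gene led all libraries. The leading gene was Ighv1-55 in DATK32 with 20 of 240 assigned cells (8.33%, 5.16 to 12.6), Ighv1-26 in MECA367 with 25 of 260 (9.62%, 6.32 to 13.9), and Ighv1-76 in RatIgG. Ighv1-76 was on top in 7 DATK32 cells (2.92%), 14 MECA367 cells (5.38%) and 70 of 398 RatIgG cells (17.6%, 14.0 to 21.7). Ighv2-9-1 was on top in 7 DATK32 (2.92%), 6 MECA367 (2.31%) and 54 RatIgG cells (13.6%, 10.4 to 17.3). Ighv6-3 took 3.33% of cells in DATK32, 1.15% in MECA367 and 11.1% (8.15 to 14.6) in RatIgG. At the minimum of 3 UMIs these 3 genes were highest in RatIgG, with intervals that did not overlap those of the other libraries. They are among the 5 named for their mean share, and the count over all heavy genes is not given here. With at least 10 UMIs Ighv1-76 was on top in 10 of 104 RatIgG and 9 of 122 MECA367 cells, so its separation from MECA367 depended on the minimum. Ighv1-26 was lowest in RatIgG, at 7.5% in DATK32, 9.62% in MECA367 and 1.51% (0.557 to 3.25) in RatIgG, and Ighv1-55, at 8.33% (DATK32), 4.62% (MECA367) and 5.28% (RatIgG), had overlapping intervals. The leads depended on how many UMIs a top gene needed and, in DATK32, also on which cells were kept. With at least 10, Ighv1-76 led MECA367 with 7.38% of cells, where Ighv1-26 was at 3.28%, and Ighv2-9-1 led RatIgG with 41.3%, where Ighv1-76 was at 9.62%. With at least 1, Ighv1-26 led DATK32 with 9.72%, against 6.94% for Ighv1-55, and with near-identical genes merged the set that holds Ighv1-55 was at 16.1% in DATK32, a merging chosen after the data were seen. Without cells with a second heavy gene of 30%, Ighv1-26 led DATK32 with 17 cells, against 13 for Ighv1-55. At a mitochondrial limit of 5% these 2 genes tied in DATK32 with 16 cells each. They also tied there, with 18 each, when at least 10 Jchain UMIs and 2 of Mzb1 and Derl3 were required. Without cells with markers of another lineage Ighv1-26, Ighv1-55 and Ighv7-1 tied in DATK32 with 8 each.

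**Figure D1:**
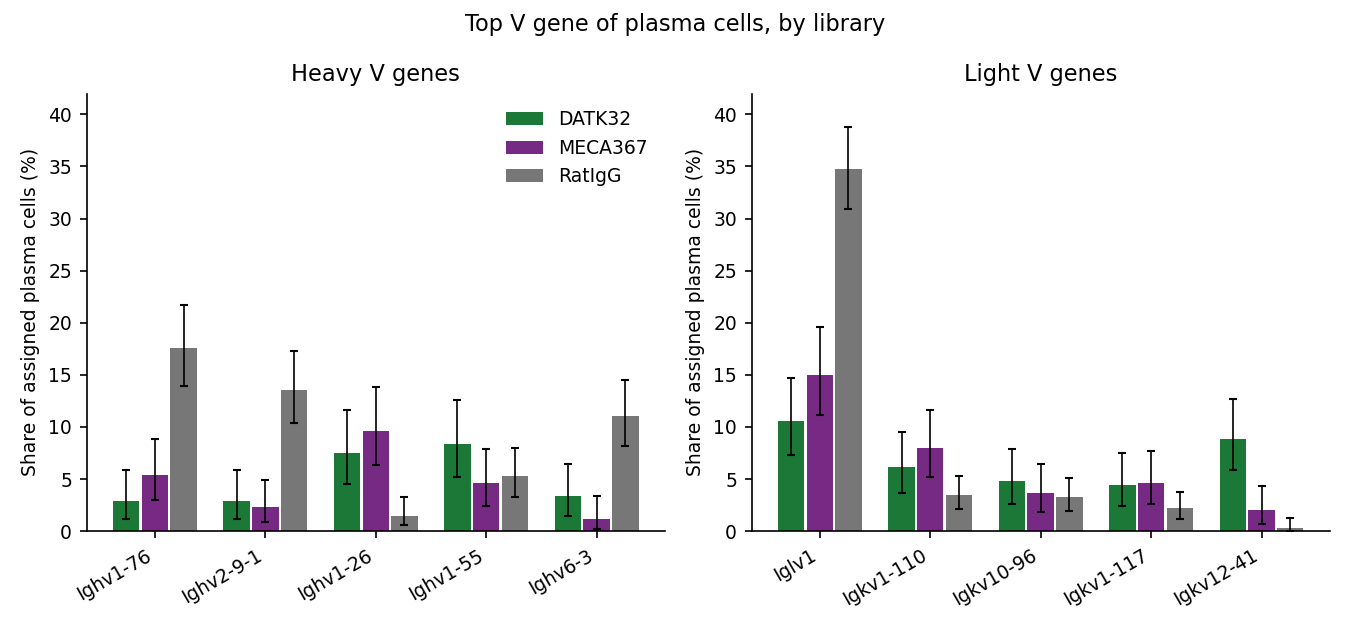
Share of assigned plasma cells (%) with each gene on top, for the 5 heavy (left) and 5 light (right) V genes with the largest mean share over the 3 libraries; bars are 1 library each and whiskers are exact 95% intervals for counting error. Iglv1 stands at 10.6% in DATK32 and 15% in MECA367, against 34.8% in RatIgG, and Ighv1-76 and Ighv2-9-1 are highest in RatIgG.

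By subgroup, Ighv1, the largest family of heavy V segments, was on top in 59.2% of DATK32, 58.8% of MECA367 and 50.8% of RatIgG cells, through 42 different genes. Ighv2 took 7.08% (DATK32), 10.0% (MECA367) and 19.1% (RatIgG), and Ighv6 4.17% (DATK32), 2.31% (MECA367) and 12.1% (RatIgG). Ighv7 was higher in DATK32 (7.92%, 4.83 to 12.1) and MECA367 (6.54%, 3.85 to 10.3) than in RatIgG (1.76%, 0.710 to 3.59). Single pairs set some of these shares. Of the 19 DATK32 Ighv7 cells, 10 held Ighv7-3 with Igkv12-41 and 8 held Ighv7-1 with Iglv1, whereas each was in 1 of 17 in MECA367. Of the 76 RatIgG Ighv2 cells, 52 held Ighv2-9-1 with Iglv1. Among kappa subgroups Igkv12 reached 14.7% of light-assigned cells in DATK32 (10.8 to 19.3), against 5.0% in MECA367 and 4.30% in RatIgG, and Igkv2 took 1.71% in DATK32 and 2.0% in MECA367, against 8.43% in RatIgG (6.30 to 11).

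Iglv1, which encodes the major mouse lambda V segment, was the leading light gene of every library, with 31 of 293 cells in DATK32 (10.6%, 7.30 to 14.7), 45 of 300 in MECA367 (15%, 11.2 to 19.6) and 202 of 581 in RatIgG (34.8%, 30.9 to 38.8). With the light gene taken from the class of the constant genes the lead passed to Igkv12-41 in DATK32 (8.84%, with Iglv1 at 3.40%) and to Igkv1-110 in MECA367 (8.61%, with Iglv1 at 3.97%), and Iglv1 kept it in RatIgG alone (26.6%). The kappa genes that followed by V UMIs were each at 8.87% or less. Igkv1-110 took 6.14% (DATK32), 8.0% (MECA367) and 3.44% (RatIgG) of cells, Igkv10-96 4.78% (DATK32), 3.67% (MECA367) and 3.27% (RatIgG), and Igkv1-117 4.44% (DATK32), 4.67% (MECA367) and 2.24% (RatIgG). Igkv12-41 was highest in DATK32 with 26 cells (8.87%, 5.88 to 12.7), against 6 in MECA367 (2.0%) and 2 in RatIgG (0.344%). Iglv2, 97.0% identical to Iglv1, was on top in 0 (DATK32), 3 (MECA367) and 9 (RatIgG) cells, and Iglv3 in 0 of all 3 libraries.

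The light constant genes, which the assignment did not use, gave a lower lambda share than the V genes. Lambda constant UMIs (Iglc1, Iglc2 and Iglc3) exceeded those of Igkc, the kappa constant gene, in 11 of 326 DATK32 cells (3.37%, 1.70 to 5.96), 16 of 330 MECA367 cells (4.85%, 2.80 to 7.75) and 172 of 697 RatIgG cells (24.7%, 21.5 to 28.1). A lambda V gene was on top in 31 (DATK32), 48 (MECA367) and 211 (RatIgG) cells, and in 21 (DATK32), 33 (MECA367) and 53 (RatIgG) of these Igkc was at or above lambda. A kappa V gene on top went with Igkc in 262 of 262 DATK32, 252 of 252 MECA367 and 369 of 370 RatIgG cells. Cells with a lambda V gene on top were thus kappa by constant gene in 67.7% of cases in DATK32, 68.8% in MECA367 and 25.1% in RatIgG. By both readouts the lambda share was highest in RatIgG. Taking the light gene from the class of the constant genes, a choice made after the data were seen, gave lambda V shares of 3.40% (DATK32), 4.97% (MECA367) and 28% (RatIgG).

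Iglv1 was detected in most kappa cells. In cells with at least 95% of light constant UMIs from Igkc, Iglv1 had a UMI in 238 of 309 DATK32 cells (77.0%), 261 of 306 MECA367 cells (85.3%) and 301 of 492 RatIgG cells (61.2%), with medians of 2 (DATK32), 6 (MECA367) and 1 (RatIgG) UMIs. It held 19.0% (DATK32), 25.7% (MECA367) and 17.2% (RatIgG) of the light V UMIs of those cells. In cells with at least 50% of their light constant UMIs from lambda genes, Iglv1 had medians of 44 (DATK32), 49 (MECA367) and 22 (RatIgG) UMIs, and per 10000 UMIs it stood at 84.2 (DATK32), 107 (MECA367) and 62.1 (RatIgG), against 8.53 (DATK32), 16.5 (MECA367) and 5.52 (RatIgG) in the kappa cells. Other V genes were not spread in this way: Iglv1 was present without being on top in 67.8% (DATK32), 72.1% (MECA367) and 41.6% (RatIgG) of plasma cells and Iglv3 in 26.4% (DATK32), 37.0% (MECA367) and 13.8% (RatIgG), while the next gene reached 12.1% at most. In barcodes outside the plasma rule Iglv1 had a UMI in 0.290% (DATK32), 0.396% (MECA367) and 1.06% (RatIgG) of cells. Across kappa cells the Spearman correlation of Iglv1 with Igkc was 0.52 (DATK32), 0.65 (MECA367) and 0.53 (RatIgG) (309 DATK32, 306 MECA367 and 492 RatIgG cells), and with Iglc1 it was 0.06 (DATK32), −0.07 (MECA367) and 0.05 (RatIgG); these are descriptions of cells of single libraries, whose counts share depth.

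**Figure D2:**
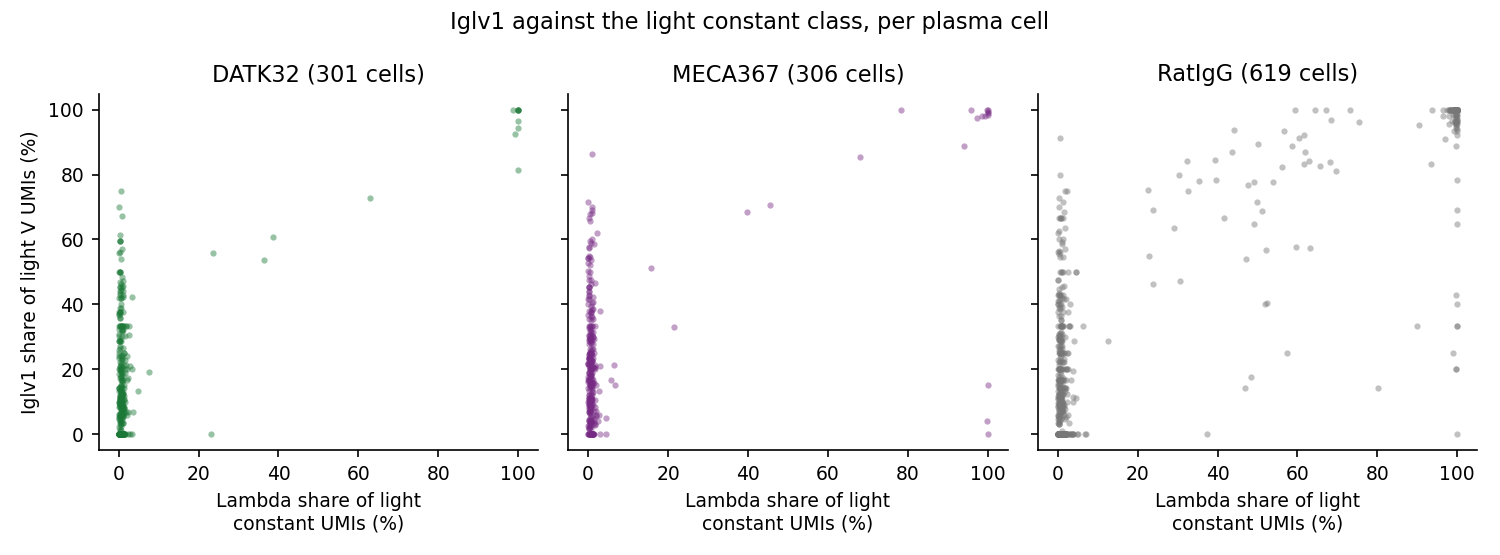
Iglv1 share of light V UMIs (%) against the lambda share of light constant UMIs (%), 1 point per plasma cell with at least 3 light V UMIs. Below 5% lambda the median Iglv1 share is 12.5% in 286 DATK32 cells, 18.9% in 284 MECA367 cells and 11.1% in 428 RatIgG cells, with single cells up to 75% (DATK32), 86.5% (MECA367) and 91.4% (RatIgG); above 50% lambda it is 98.2% (DATK32), 98.0% (MECA367) and 100% (RatIgG) in 10 (DATK32), 15 (MECA367) and 163 (RatIgG) cells.

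Iglv1 was the top light gene in 18 DATK32, 29 MECA367 and 32 RatIgG cells of the kappa kind, so the constant gene is given beside each leading pair that holds Iglv1. Ighv1-76 with Iglv1, for example, was seen once each in DATK32 and MECA367, and Igkc was on top in both cells.

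Heavy and light pairs numbered 131 in DATK32, 155 in MECA367 and 153 in RatIgG, and 370 over the 3 libraries. A pair held by at least 2 cells of a library is called repeated: 44 (DATK32), 49 (MECA367) and 47 (RatIgG) pairs were repeated, and they covered 142 of 229 DATK32 cells (62.0%, 55.4 to 68.3), 150 of 256 MECA367 cells (58.6%, 52.3 to 64.7) and 259 of 365 RatIgG cells (71.0%, 66.0 to 75.6). At an equal number of 229 paired cells the shares were 62.0% (DATK32), 56.5% (MECA367) and 64.7% (RatIgG). With V UMIs thinned to 10 per chain in place of equal cell numbers they were 44.8% (DATK32), 43.7% (MECA367) and 65.7% (RatIgG). The libraries also differed in the size of the largest pairs. The 2 largest held 22 cells in DATK32 (9.61%, 6.12 to 14.2), 15 in MECA367 (5.86%, 3.32 to 9.48) and 105 in RatIgG (28.8%, 24.2 to 33.7).

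The probability that 2 cells of a library held the same pair was 0.992% in DATK32, 0.628% in MECA367 and 4.58% in RatIgG. In RatIgG it was 22.4% with at least 10 UMIs of each top gene and 17.1% with 10 V UMIs per chain. Without the 2 largest pairs of each library it was 0.694% (DATK32), 0.539% (MECA367) and 0.998% (RatIgG). Between libraries it was 0.213% (DATK32 and MECA367), 0.310% (DATK32 and RatIgG) and 0.314% (MECA367 and RatIgG), lower than within any of them.

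**Figure D3:**
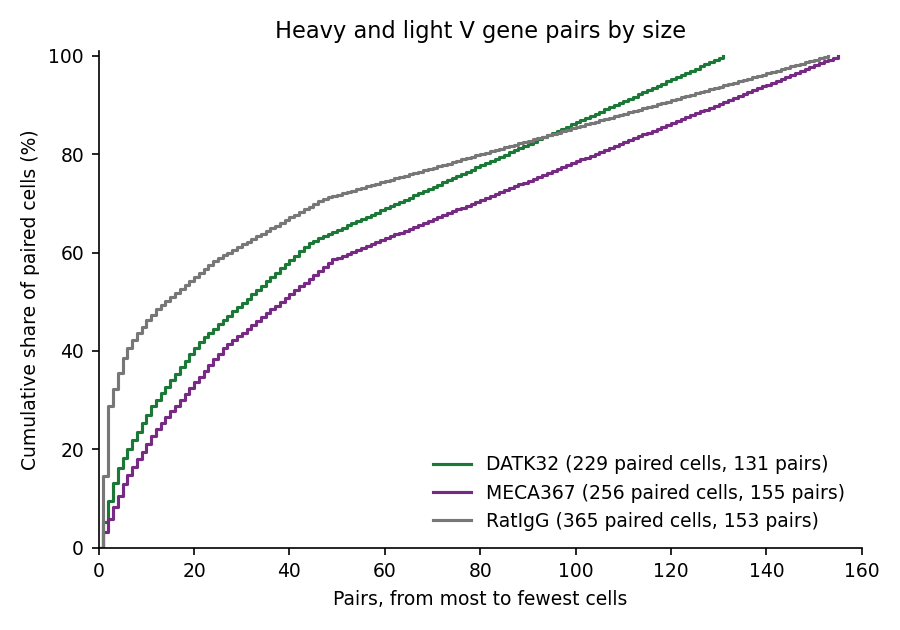
Cumulative share of paired plasma cells (%) against the number of V gene pairs, ordered from most to fewest cells, 1 line per library. The DATK32 line reaches 9.61% after 2 pairs and 18.3% after 5, the MECA367 line 5.86% and 12.9%, and the RatIgG line 28.8% and 38.6%.

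In DATK32 the largest pair was Ighv1-63 with Igkv15-103 in 12 cells (5.24%, 2.74 to 8.97). It took 12 of the 13 paired Ighv1-63 cells, with 3 to 11 heavy and 6 to 28 light UMIs of these genes per cell, and it was absent from the 256 MECA367 and 365 RatIgG paired cells, which allows shares of up to 1.17% in MECA367 and 0.822% in RatIgG at 3 cells of the total, and up to 1.43% and 1.01% by the exact interval. Ighv7-3 with Igkv12-41 followed in 10 cells (4.37%), against 1 in MECA367 and 2 in RatIgG. Ighv7-1 with Iglv1 was in 8 cells (3.49%), 7 of them with Iglc1 above the other light constant genes, against 1 in MECA367 and 0 in RatIgG. Ighv6-3 with Igkv8-30 had 7 cells (3.06%, 1.24 to 6.2) and Ighv1-55 with Igkv6-15 had 5 (2.18%).

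MECA367 had no pair above 8 cells. Ighv1-76 with Igkv5-43 led with 8 (3.13%, 1.36 to 6.06), against 0 in DATK32 and 3 in RatIgG, and Ighv2-2 with Igkv4-59 followed with 7, against 0 in both other libraries. A further 3 pairs had 6 cells each: Ighv1-26 with Igkv1-135, Ighv1-26 with Igkv8-21 and Ighv1-53 with Igkv10-94. Both Ighv1-26 pairs were also in 4 DATK32 cells each and in 0 RatIgG cells.

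In RatIgG the 2 largest pairs were of nearly the same size and shared the light V gene. Ighv1-76 with Iglv1 was in 1 DATK32 cell (0.437%) and 1 MECA367 cell (0.391%), against 53 RatIgG cells (14.5%, 11.1 to 18.6). Ighv2-9-1 with Iglv1 was in 1 DATK32 cell (0.437%) and 2 MECA367 cells (0.781%), against 52 RatIgG cells (14.2%, 10.8 to 18.3). Then came Ighv6-3 with Igkv4-57 in 13 cells (3.56%), Ighv6-3 with Igkv8-30 in 12 (3.29%) and Ighv1-62-3 with Igkv2-137 in 11 (3.01%). The Ighv6-3 and Igkv8-30 pair was thus among the 5 largest of both DATK32 and RatIgG and in 0 of 256 MECA367 cells.

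**Figure D4:**
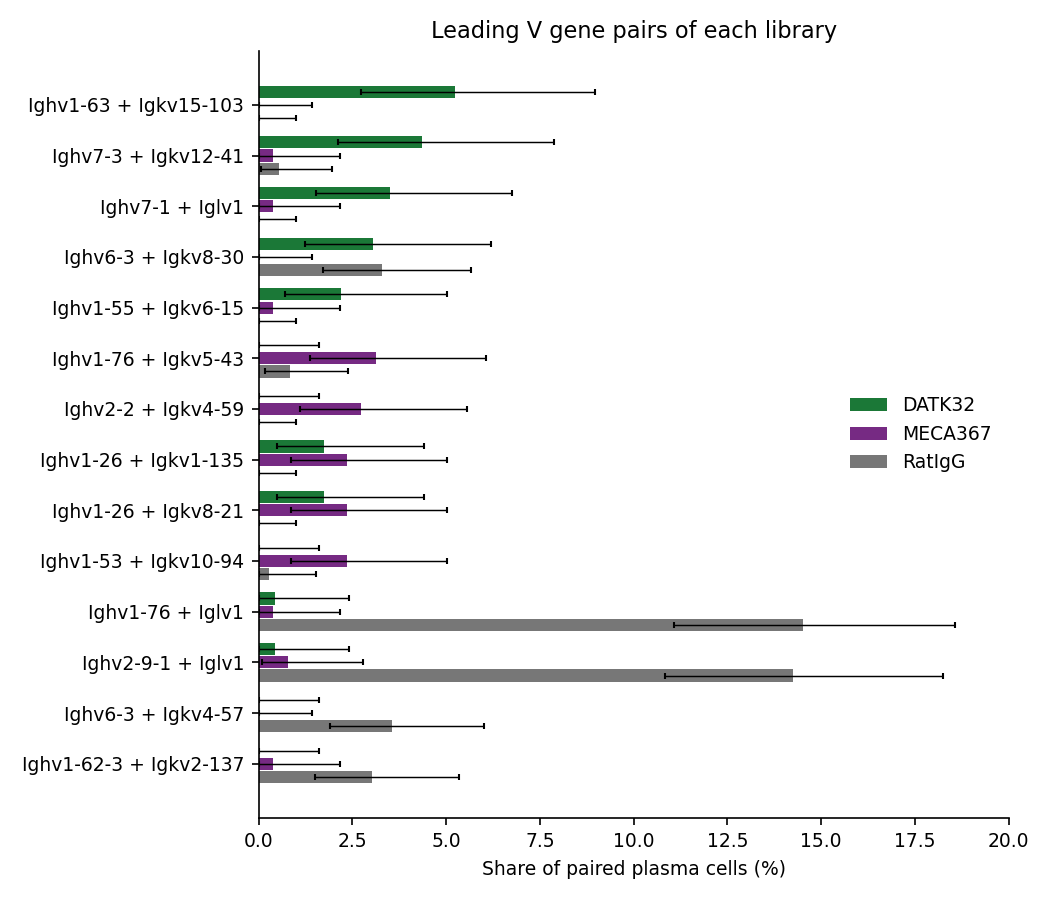
Share of paired plasma cells (%) held by the 5 largest V gene pairs of each library, 14 pairs in all; bars are 1 library each and whiskers exact 95% intervals. The 2 Iglv1 pairs of RatIgG stand at 14.5% and 14.2%, and no other bar passes 5.24%.

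Heavy V genes differed in how their cells were spread over light partners. Cells of 1 clone count more than once here, so the values do not show how freely a gene can pair. Ighv2-9-1 had Iglv1 in 52 of its 53 paired RatIgG cells, whereas its leading partner was Igkv4-57 in DATK32 (4 of 6 cells) and Igkv4-59 in MECA367 (3 of 5). Ighv1-76 had Iglv1 in 53 of 67 RatIgG cells, with 7 partners in all, and Igkv5-43 in 8 of 14 MECA367 cells. Ighv1-55 was spread over 9 (DATK32), 7 (MECA367) and 14 (RatIgG) light partners in 20 (DATK32), 11 (MECA367) and 18 (RatIgG) cells, and no partner held more than 5 cells. Ighv1-26 had 8 (DATK32), 13 (MECA367) and 4 (RatIgG) partners in 18 (DATK32), 25 (MECA367) and 6 (RatIgG) cells.

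Pairs shared by 2 libraries numbered 22 between DATK32 and MECA367 (16.8% and 14.2% of the pairs of each), 23 between DATK32 and RatIgG (17.6% and 15%) and 34 between MECA367 and RatIgG (21.9% and 22.2%). Of these, 10 pairs were in all 3 libraries. Iglv1 is in 5 of them, with Ighv1-26, Ighv1-53, Ighv1-55, Ighv1-76 or Ighv2-9-1, but Igkc was the light constant gene on top in 5 of the 6 DATK32, 4 of the 6 MECA367 and 15 of the 109 RatIgG cells of these 5 pairs. The others are Ighv7-3 with Igkv12-41, Ighv1-31 with Igkv5-48 (1 DATK32, 3 MECA367 and 5 RatIgG cells), Ighv3-6 with Igkv1-110 (2 DATK32, 3 MECA367 and 1 RatIgG cells), Ighv1-55 with Igkv8-27 (2 DATK32, 4 MECA367 and 2 RatIgG cells) and Ighv1-55 with Igkv1-117 (3 DATK32, 1 MECA367 and 2 RatIgG cells).

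The 2 largest RatIgG pairs differed in their lambda constant gene. The most abundant light constant gene was Iglc1 in 45 of the 52 Ighv2-9-1 cells and Iglc3 in 44 of the 53 Ighv1-76 cells. Igkc was on top in 6 Ighv2-9-1 and 7 Ighv1-76 cells, and Igha, the IgA constant gene, in all 52 and all 53. The cells were of like depth, with medians of 4093 UMIs for Ighv2-9-1 and 4044 for Ighv1-76, but the top heavy gene had a median of 19 UMIs for Ighv2-9-1 and 6 for Ighv1-76. Asking for at least 10 UMIs of each top gene left 42 of 90 paired cells (46.7%) for Ighv2-9-1 with Iglv1 and 7 of 90 (7.78%) for Ighv1-76 with Iglv1. The pairs held 93 of the 172 lambda cells of RatIgG. Without them lambda UMIs exceeded Igkc UMIs in 3.40% of plasma cells in DATK32 and 4.59% in MECA367, against 79 of 592 (13.3%, 10.7 to 16.4) in RatIgG. Whether the cells of a pair came from 1 animal or several cannot be told apart here.

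Other genes also differed between these 2 pairs, picked after their values were seen as those with the largest differences in detection. Ly6k (chr15:74796874-74799986), a gene of the Ly6 family of surface proteins, had a UMI in 31 of 52 Ighv2-9-1 cells (59.6%, 45.1 to 73.0), against 4 of 53 Ighv1-76 cells (7.55%, 2.09 to 18.2) and 30 of 260 other paired RatIgG cells (11.5%). Ighv2-9-1 cells of DATK32 and MECA367 had a Ly6k UMI in 0 of 7 and 0 of 6, too few to compare. Ly6a was detected in 42 of 52 against 23 of 53 cells and Tmem176a in 51 of 52 against 35 of 53. Rpn1, Hyou1 and Creld2, which act in the endoplasmic reticulum, were detected in 13, 8 and 25 of the 52 Ighv2-9-1 cells, against 32, 24 and 41 of the 53 Ighv1-76 cells. The noncoding gene 2010309G21Rik was detected in 1 of 52 against 19 of 53 cells; it lies at chr16:19051367-19106749 on the strand opposite Iglv1, Iglc3 and Iglc1, and since the strand setting is not stated, its reads cannot be told apart from theirs.

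IgA dominated among the plasma cells of every library. The rule that chose them asked for Jchain, the joining chain of secreted IgA, so it can favour IgA cells, which was not tested. Igha was the top heavy constant gene in 314 of 326 DATK32 cells (96.3%), 326 of 330 MECA367 cells (98.8%) and 685 of 697 RatIgG cells (98.3%). All 239 cells of the 14 leading pairs, over the 3 libraries, had Igha on top.

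Some V genes known from innate-like and hapten responses were also looked at. Ighv11-2, which with Igkv14-126 encodes phosphatidylcholine-binding antibodies of B-1 cells, had 0 (DATK32), 0 (MECA367) and 2 (RatIgG) UMIs, and Ighv12-3, which does so with Igkv4-91, had 0 in all libraries, while Igkv4-91 was on top in 5 (DATK32), 7 (MECA367) and 4 (RatIgG) cells. Ighv7-1, the heavy gene of the T15 antibodies to phosphorylcholine, was on top in 8 DATK32, 3 MECA367 and 0 RatIgG cells, but Igkv7-33, listed as its light partner, had 0 UMIs. Ighv1-72 with Iglv1, the pair of the response to the hapten NP, was in 0 cells of each library, and Ighv1-72 alone was on top in 0 (DATK32), 2 (MECA367) and 4 (RatIgG) cells. Ighv1-62-3, 99.0% identical to Ighv1-72, was with Iglv1 in 3 RatIgG cells. Reads can be split between these genes, so the absence of the Ighv1-72 pair is uncertain.

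Counts were also summed over the plasma cells of each library, and most measured V genes were called in each comparison. A gene was called when its CPM differed at least 1.5-fold and the Poisson intervals were apart, over 7687 genes with at least 50 counts, of which 106 were V genes. In DATK32 over RatIgG 41 V genes were higher and 29 lower (66.0%), where 4.03% of all genes were called (1.56% higher and 2.47% lower). In MECA367 over RatIgG 62 were higher and 17 lower (74.5%), where 14.8% of all genes were called (3.84% higher and 11.0% lower). In DATK32 over MECA367 26 were higher and 49 lower (70.8%), where 8.25% of all genes were called (5.35% higher and 2.90% lower). The median absolute log2 ratio in DATK32 over RatIgG was 1.47 for V genes and 0.22 for all genes. Since a plasma cell reads mostly from 1 heavy and 1 light V gene, a few cells can set a V gene's sum, and the first and the last comparison use the same DATK32 cells, the first and the second the same RatIgG cells. The median log2 ratio of V genes was 0.51 in DATK32 over RatIgG, 1.05 in MECA367 over RatIgG and −0.45 in DATK32 over MECA367, where that of all genes was −0.09, −0.22 and 0.12 in the same order. Scaled to V UMIs in place of all UMIs, 40 were higher and 29 lower in DATK32 over RatIgG, 44 and 20 in MECA367 over RatIgG, and 34 and 40 in DATK32 over MECA367.

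**Figure D5:**
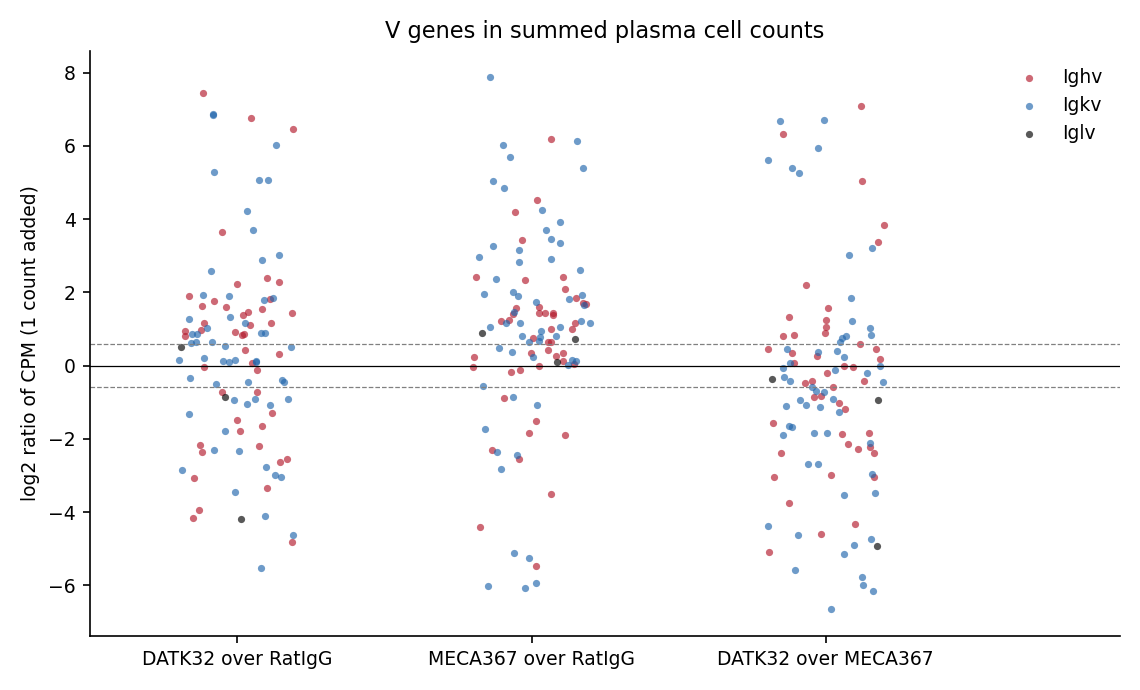
log2 ratio of CPM (1 count added) of 106 V genes in the summed plasma cells, for 3 comparisons, coloured by locus; dashed lines mark a fold of 1.5. Ratios spread on both sides of 0, with 62 genes higher and 17 lower in MECA367 over RatIgG, the most uneven split.

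The V genes with the most extreme ratios were carried by 1 cell in some cases and by many in others. In DATK32 over RatIgG, Ighv7-1 had 118 counts in 8 cells of DATK32, against 0 in RatIgG, at least 57.4-fold higher against a floor of 3 counts per library. Igkv8-21 had 392 counts against 16 (199 and 5.58 CPM) and Igkv12-41 449 against 49 (228 and 17.1 CPM). Igkv12-44, in a near-identical set with Igkv12-41, went the other way, with 90 counts in DATK32 against 248 in RatIgG. At the low end Iglv2 had 3 counts in DATK32, against 105 in RatIgG, and Ighv2-9-1 79 against 1182 (40.2 and 412 CPM, log2 ratio −3.34), with a UMI in 7 DATK32 and 62 RatIgG cells. Igkv8-24 had 8 against 104 counts, of which 97 came from a single RatIgG cell.

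In MECA367 over RatIgG, Igkv8-28 had 212 counts in 8 cells of MECA367, against 0 in RatIgG, at least 77.7-fold higher on the same floor. Igkv8-19, in a near-identical set with Igkv8-28, went the other way, with 0 counts in MECA367 against 70 in RatIgG. The size of the Igkv8-28 ratio may thus depend on which of these genes took the reads, which was not tested. Igkv8-21 (646 against 16 counts) and Igkv5-45 (118 against 3, with 63 in 1 cell) were next. Igkv5-43, in a set with Igkv5-45, had 515 counts in MECA367 against 252 in RatIgG. Ighv2-9-1 (50 against 1182, log2 ratio −4.40), Ighv1-62-3 (15 against 199) and Igkv8-30 (26 against 210) were lowest. In DATK32 over MECA367, Ighv2-3 had 102 counts in DATK32, 68 of them in 1 cell, against 0 in MECA367, at least 45.1-fold higher. Ighv1-63 (129 against 11) and Igkv8-30 (165 against 26) followed. Igkv4-80 had 0 counts in DATK32, against 132 in MECA367, at least 33.2-fold lower, and Iglv2 (3 against 159) and Igkv5-45 (2 against 118) were also low. Igkv5-43 went the other way from Igkv5-45, with 661 counts in DATK32 against 515 in MECA367.

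By summed CPM Iglv1 did not follow the number of lambda cells. It stood at 1142 CPM in DATK32, 2188 in MECA367 and 2050 in RatIgG, called lower in DATK32 over RatIgG (log2 ratio −0.84) and not called in MECA367 over RatIgG (0.09). The lambda constant genes did: Iglc1 had 11081 (DATK32), 14094 (MECA367) and 34607 (RatIgG) CPM, Iglc2 1213 (DATK32), 3018 (MECA367) and 5394 (RatIgG), and Iglc3 786 (DATK32), 1965 (MECA367) and 22377 (RatIgG), all called lower in DATK32 and in MECA367 than in RatIgG. Iglc2 and Iglc3 were 96.2% identical over the coding exon, so reads can be split between them and their calls are not separate observations. Of 12 listed constant genes 10 were measured. The share of all genes called was 4.03% in DATK32 over RatIgG, 14.8% in MECA367 over RatIgG and 8.25% in DATK32 over MECA367. In DATK32 over RatIgG 1 was higher (Ighg2b, an IgG constant gene) and 4 lower (Ighd and the 3 lambda genes). Ighg2b was on top in 2 DATK32, 1 MECA367 and 0 RatIgG cells, and the 2 cells with the most UMIs held 53.4% of its 1022 counts in DATK32, 83.1% of 1536 in MECA367 and 16.3% of 312 in RatIgG. In MECA367 over RatIgG 1 was higher (Ighg2b) and 6 lower (Ighm, Ighd, Ighg1 and the 3 lambda genes). In DATK32 over MECA367 2 were higher (Ighm and Ighg1) and 2 lower (Iglc2 and Iglc3). Ighm was on top in 6 DATK32, 0 MECA367 and 5 RatIgG cells, and Ighg1 in 2 DATK32, 0 MECA367 and 3 RatIgG cells. How far a few cells set the sums of Ighm and Ighg1 was not tested. Igha, at 136253 (DATK32), 133886 (MECA367) and 136502 (RatIgG) CPM, and Igkc were not called in any comparison.

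Of 9 listed plasma cell genes, Jchain, Mzb1 and Derl3 chose the cells and are left aside here. Of the other 6, 0 were called in DATK32 over RatIgG, 1 in MECA367 over RatIgG (Irf4, a transcription factor of plasma cells, lower at 51.7 against 78.8 CPM) and 0 in DATK32 over MECA367. Over all genes the shares called were 4.03%, 14.8% and 8.25% in the same order, so 1 of 6 is near the share of all genes. Their median log2 ratios were 0.11 in DATK32 over RatIgG, 0.04 in MECA367 over RatIgG and 0.12 in DATK32 over MECA367. Of 5 recombination and germinal centre genes 1 was measured, and it was called in 0 comparisons.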

How the data were processed

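The data are 3 single-cell RNA libraries, 1 each for DATK32, MECA367 and RatIgG. Reads were turned into the deposited counts, unnormalised UMIs per gene and barcode, by Cell Ranger 6.0.2 on mm10, per the submitters' processing notes. Its gene annotation, strand option and barcode calling are not given in the sources used here. A barcode was used if it had 500 UMIs or more, 200 genes or more and no more than 10% mitochondrial UMIs. Doublets were not removed. Cells with a further heavy V gene, or with markers of a lineage other than plasma or B cells, were left out as alternatives. Shares carry exact 95% intervals (scipy 1.17.1). Plasma cell counts were summed per library and given as CPM, and log2 ratios add 1 count. Named were the 5 heavy and 5 light genes of largest mean share, the 5 largest pairs per library, and the 3 highest and 3 lowest called ratios with at least 100 counts. Members and lists were chosen with earlier results of these data known. Assignment and ratios were tested on simulated data. The simulated ratios held counting error only, so they do not cover V genes whose counts sit in few cells. Simulated assignment used only cells already paired, with fixed shares of stray V UMIs. Sequences come from GENCODE vM21 and were aligned with Biopython 1.88.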

Additional observations from a re-analysis of the deposited data

How the results depend on the processing

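No paired analysis was possible because each group has 1 library. Of 414 values recomputed for the main measures, 358 stayed within a band around the main value and 56 moved, and the cause was not tested. For shares the band was the counting interval, and for the median top shares it was the quartiles over cells, which are wide. For the same-pair probability and for counts of genes it was 1.5 times either way. The gene leading a library by heavy or light chain was recomputed 87 times and was another in 11, where a tie for the lead counted as no change. The shares below are of the genes that led in the report: Ighv1-55 (DATK32), Ighv1-26 (MECA367), Ighv1-76 (RatIgG) and, for the light chain, Iglv1. Plasma cells made up 7.83% (DATK32), 6.96% (MECA367) and 12.5% (RatIgG) of barcodes with at least 1000 UMIs and 500 genes, 8.34% (DATK32), 7.62% (MECA367) and 14.9% (RatIgG) at a mitochondrial limit of 5%, 4.13% (DATK32), 4.14% (MECA367) and 6.77% (RatIgG) over every deposited barcode, and 2.85% (DATK32), 2.67% (MECA367) and 5.23% (RatIgG) without cells carrying 2 markers of another lineage. They were 4.85% (DATK32) and 8.35% (RatIgG) with at least 10 Jchain UMIs and 2 of Mzb1 and Derl3, and 8.52% of RatIgG without cells with a second heavy gene of 30%. With a top gene of at least 10 UMIs, repeated pairs covered 51.2% (DATK32) and 43.6% (MECA367) of paired cells, Ighv1-26 held 3.28% (MECA367) and Ighv1-76 9.62% (RatIgG), and in RatIgG the same-pair probability was 22.4%, Iglv1 48.6% and the lambda V share 49.2%. Thinned to 10 V UMIs per chain, repeated pairs covered 44.8% (DATK32), 43.7% (MECA367) and 65.7% (RatIgG), Ighv1-26 held 3.91% (MECA367), where Ighv1-76 led, and Ighv1-76 10.8% (RatIgG), where Ighv2-9-1 led with 37.8%, and in RatIgG the same-pair probability was 17.1%, Iglv1 44.5%, the lambda V share 45.3%, Ighv1-76 with Iglv1 8.08% and Ighv2-9-1 with Iglv1 40.4%. Without cells of another lineage's markers repeated pairs covered 52.0% (DATK32), 49.2% (MECA367) and 61.9% (RatIgG). With a top gene of at least 1 UMI, Ighv2-9-1 with Iglv1 took 10.1% of RatIgG pairs. With at least 10 counts, 27 V genes were lower in MECA367 over RatIgG.

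The other alternatives were chosen after seeing the data. With the light gene taken from the class of the constant genes, the median top share was 100% (DATK32) and 97.1% (MECA367), Iglv1 held 3.40% (DATK32), 3.97% (MECA367) and 26.6% (RatIgG), leading in RatIgG alone, and the lambda V share was 3.40% (DATK32), 4.97% (MECA367) and 28% (RatIgG). Without Iglv1 the top share was 96.3% (DATK32) and 94.3% (MECA367), and in RatIgG repeated pairs covered 59.2% and the same-pair probability was 1.15%; the share of Iglv1 itself and the lambda share then have no value. With near-identical genes merged, repeated pairs covered 68.4% (DATK32), 68.8% (MECA367) and 75.7% (RatIgG), the set with Ighv1-55 held 16.1% in DATK32, and in MECA367 that set led in place of Ighv1-26. For the light chain the merged set of Igkv1-110 and Igkv1-117 then led DATK32 with 32 of 294 cells, against 31 for Iglv1. Without the 2 largest RatIgG pairs, plasma cells were 8.04% of RatIgG barcodes, repeated pairs covered 59.2%, the same-pair probability was 0.998%, Ighv1-76 held 5.80%, behind Ighv6-3 with 44 of 293 cells, Iglv1 held 20.4% and lambda V genes 22.3%. Depth limits the heavy chain most: 117 RatIgG cells had at least 10 heavy V UMIs.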
